A study of Mus musculus with 16 samples.

Results

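The CD40, NF-kB and light zone activation genes described here were 39 genes named one by one as a set, and their rows were taken from the deposited count table of 48593 genes by symbol. The set held the receptor gene Cd40, 5 NF-kB subunits, 6 IkB proteins, 2 feedback inhibitors, 5 TRAF adaptors, 3 regulators of cell death, 5 kinases, 6 targets or activation markers and 6 immediate early factors. All 39 were found and all 39 passed the filter on low counts. The study sequenced RNA from splenic germinal centre B cells of mice injected with sheep red blood cells, an antigen that drives a T cell dependent response. After a B cell isolation kit the cells were sorted as B220+, PNA+ and CD95+. The time from immunisation to collection is 12 days in the protocol text but 10 days in a treatment tag, which the labels do not settle.

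There were 16 libraries in 5 groups and 2 cohorts. The knockout cohort held 3 Crebbp-WT libraries (KO cohort WT) and 3 from mice with a knockout of Crebbp (KO). The knock-in cohort held 3 Crebbp-WT libraries (RH cohort WT), 4 Crebbp-RH/WT (heterozygous) libraries (RH HET) and 3 Crebbp-RH/RH (homozygous) libraries (RH HOMO), where RH stands for an arginine-to-histidine allele. Crebbp encodes a histone acetyltransferase that acts as a transcriptional coactivator. The series title calls both models conditional and specific to the germinal centre, so other tissues of the mice may keep the gene intact, and the Cre driver is not named in the labels. No label gives the ages of the mice. Whether every library had its own mouse is not stated either, and the p-values then measure only how these libraries spread, which may be technical.

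In the light zone of a germinal centre, B cells capture antigen and compete for help from follicular T cells, and CD40 on the B cell is the main receptor for that help. CD40 recruits TRAF adaptors, which lead to the IKK kinases and the release of the NF-kB dimers of Rela, Rel and Nfkb1 from IkB proteins, and to the kinase NIK (Map3k14) and the dimer of Relb and Nfkb2. Many targets of NF-kB, such as Nfkbia, Tnfaip3, Traf1 and Cd83, feed back on the pathway or mark activated cells, and signals of the B cell receptor raise immediate early factors such as Egr1, Nr4a1 and Fos.

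Library totals ran from 41362856 counts in RH HET 4 to 93040297 counts in KO cohort WT 2. Crebbp itself was at 131, 127 and 149 CPM (depth-normalised counts, here on library sizes scaled by TMM) in KO cohort WT and at 123, 137 and 108 CPM in KO. The deleted part is not given, and a level counted over the whole gene is no check of the knockout. In the RH cohort, Crebbp was at 93.2, 91.3 and 122 CPM in WT, 138, 124, 137 and 126 CPM in RH HET and 115, 68.6 and 126 CPM in RH HOMO. RH HOMO 2, at 77.1, and RH cohort WT 1, at 50.7, stood apart on the first principal component, with the other 14 libraries between -40.7 and 24.3. The batch tag of RH cohort WT 1 names the other cohort. Mitochondrial transcripts took 7.34%, 7.15% and 4.72% of counts in RH cohort WT and 3.43% to 5.84% in the other groups. Summed heat shock genes were at 10150, 7770 and 6353 CPM in RH cohort WT, above the 6344 to 7723 CPM of RH HOMO in 2 of 3 libraries. Markers of germinal centre B cells summed to 9234 to 11380 CPM, and every one of the 15 was detected above 1 CPM in at least 1 library. Among 13 T cell markers 9 were under 1 CPM in every library, Cd3e, Cd3d, Cd3g, Cd4 and Cd8a included, and Lck made up 55.3% of the summed list. All 10 neutrophil markers were under 1 CPM in every library, as were 8 of 10 erythroid markers and 6 of 9 dendritic cell markers. Macrophage markers summed to 19.2 to 40.4 CPM. In bulk samples, fewer cells of a type and less RNA per cell cannot be told apart.

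Promoter sequences were matched by symbol for 29 of the 39 genes, from RefSeq on GRCm38.p6, each from 250 bases before to 50 after a start site. Cd40, Cd83, Egr1, Egr3, Ikbkb, Map3k8, Marcks, Nfkb1, Nfkbiz and Relb had no entry. The NF-kB consensus motif was found on either strand in 13 of the 29 genes (44.8%), against 5.14% of 27025 genes with a promoter entry. The full cAMP response element TGACGTCA was found in Birc2 and Nfkbid (6.9% against 2.03% of all genes), and the CArG box in Egr2 (3.45% against 1.81%). A match describes the letters only, and is no evidence of binding. Traf1 and Gadd45b, the members that passed the test in RH HOMO, are shown whole, beside Nfkbia, a classical NF-kB target. Capitals mark a match to the NF-kB consensus motif. Traf1 (chr2:34961723-34962022, minus strand) and Gadd45b (chr10:80929841-80930140, plus strand) held no match in this window, and Nfkbia (chr12:55492598-55492897, minus strand) held 1.
Traf1: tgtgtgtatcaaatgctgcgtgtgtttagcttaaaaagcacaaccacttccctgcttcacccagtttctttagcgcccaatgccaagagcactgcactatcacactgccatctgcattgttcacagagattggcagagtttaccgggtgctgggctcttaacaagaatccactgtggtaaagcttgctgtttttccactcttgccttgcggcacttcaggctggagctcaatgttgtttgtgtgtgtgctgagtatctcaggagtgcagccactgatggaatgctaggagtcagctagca
Gadd45b: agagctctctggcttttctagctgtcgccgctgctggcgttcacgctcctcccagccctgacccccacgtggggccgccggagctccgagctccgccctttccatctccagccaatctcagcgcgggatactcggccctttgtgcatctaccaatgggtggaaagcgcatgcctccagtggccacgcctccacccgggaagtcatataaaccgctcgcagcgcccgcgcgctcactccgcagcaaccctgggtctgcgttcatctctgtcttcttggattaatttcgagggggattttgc
Nfkbia: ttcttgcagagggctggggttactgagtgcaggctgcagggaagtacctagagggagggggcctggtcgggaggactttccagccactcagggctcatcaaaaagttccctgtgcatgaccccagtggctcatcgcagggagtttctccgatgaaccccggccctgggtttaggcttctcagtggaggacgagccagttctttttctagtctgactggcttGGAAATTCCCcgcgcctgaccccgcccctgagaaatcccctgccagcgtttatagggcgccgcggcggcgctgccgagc

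Matches in other members are shown as 30-base windows with the motif in capitals, so that the shared letters can be compared. They come from subunits (Rel, Nfkb2), IkB proteins (Nfkbie, Bcl3), feedback inhibitors (Tnfaip3, Tnip1) and an adaptor (Traf3). The last ones come from a cytokine subunit (Ebi3) and an immediate early factor (Nr4a1). Overlapping matches were merged, as in Tnip1. The windows lie at chr11:23771042-23771071, chr19:46304688-46304717, chr17:45555584-45555613, chr7:19822734-19822763, chr10:19015403-19015432, chr11:54962978-54963007, chr12:111166350-111166379, chr17:55952569-55952598 and chr15:101266833-101266862, on the minus strand for Rel, Bcl3, Tnfaip3 and Tnip1 and on the plus strand for the others.
Rel: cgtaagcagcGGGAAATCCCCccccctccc
Nfkb2: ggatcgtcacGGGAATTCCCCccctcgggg
Nfkbie: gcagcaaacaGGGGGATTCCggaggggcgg
Bcl3: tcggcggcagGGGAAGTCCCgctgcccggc
Tnfaip3: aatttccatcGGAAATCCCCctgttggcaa
Tnip1: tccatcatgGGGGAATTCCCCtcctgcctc
Traf3: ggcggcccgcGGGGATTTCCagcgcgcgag
Ebi3: gccccttcctGGGGCTTCCCcgttggccat
Nr4a1: gggctcgccaGGGGAGCCCCagtgcaggag

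Levels between genes were compared per kilobase of exon in the wild type groups. The length was the union of the exons of all annotated transcripts of a gene, which can exceed the length of any 1 transcript. It was 12061 bases for Nfkb1, 4584 for Nfkb2 and 9018 for Ikbke, and the order of genes depends on this choice of length. Cd83, a surface marker of activated B cells, had the highest level, at 121 ± 19.2 CPM per kilobase in KO cohort WT and 109 ± 23.7 in RH cohort WT (SD, n = 3 each). Gadd45b, a stress-inducible regulator of MAP kinase signalling, followed at 60.6 ± 5.97 and 75.0 ± 2.66 CPM per kilobase. Rel was at 42.9 ± 1.14 and 27.8 ± 5.33. Rela (29.8 ± 2.77 and 34.1 ± 0.736) and Nfkbia (30.6 ± 3.04 and 31.6 ± 8.56) came next, and these neighbours did not differ beyond their spread. Of the other subunits, Nfkb2 was at 19.2 ± 1.33 and 20 ± 4.43, Nfkb1 at 18 ± 1.08 and 17.1 ± 1.37 and Relb at 7.10 ± 0.489 and 8.56 ± 0.569 CPM per kilobase. Cd40 was at 13.2 ± 0.884 and 13.9 ± 1.57, between Nfkb1 and Relb. The lowest levels were in Ikbke (1.40 ± 0.0268 and 1.06 ± 0.201), the kinase gene Map3k8 (1.98 ± 0.22 and 1.97 ± 0.227) and Fos (0.55 ± 0.0906 and 2.62 ± 1.69).

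**Figure D1:**
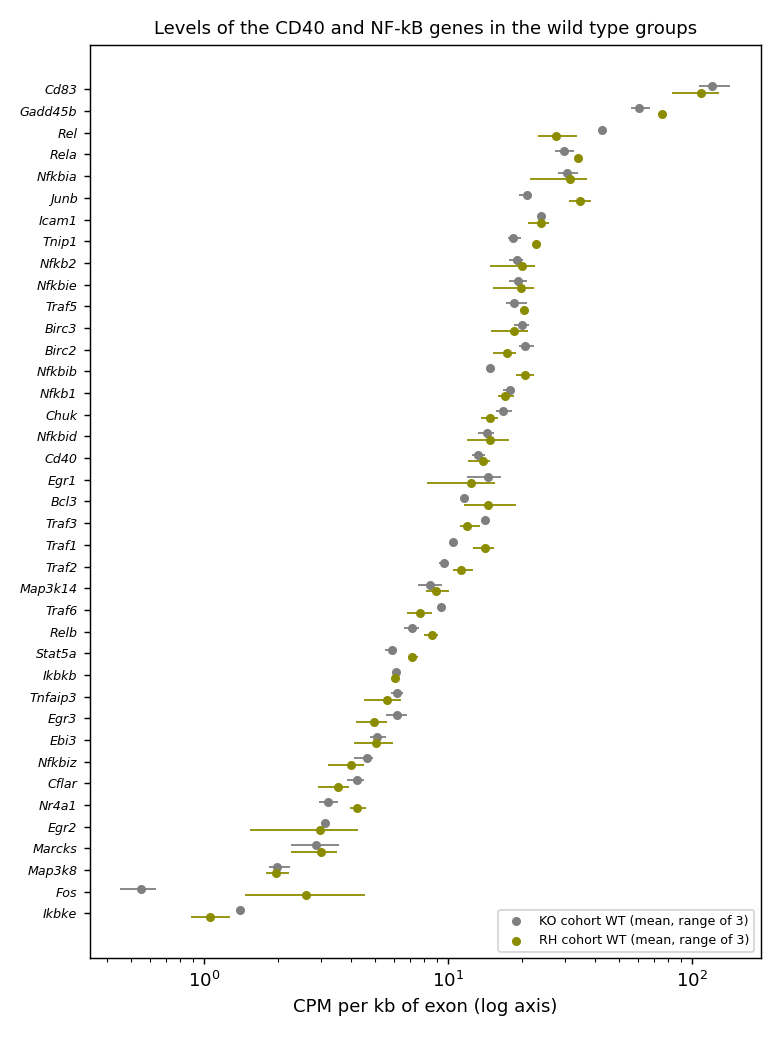
Levels of the 39 genes in the wild type groups as CPM per kilobase of exon on a log axis, with the mean and range of 3 libraries per group, ordered by level. Cd83 is highest at 121 CPM per kilobase in KO cohort WT, and Fos and Ikbke are lowest.

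The wild type groups of the cohorts were compared first, because each genotype was read against its own. Relative to KO cohort WT, 4 of the 39 genes were higher in RH cohort WT and 1 was lower at an adjusted p under 0.05 (edgeR quasi-likelihood test), where 3.17% and 1.88% of all 16606 tested genes were. Junb, Nfkbib, Traf1 and Fos were the higher members and Rel the lower one. The library values of 11 members lay above and of 5 below those of the other group with no overlap, where 17.4% and 16.8% of all genes did. The set's median log2 difference was 0.03, against 0.01 over all genes. Cohort, handling and library preparation cannot be told apart in this comparison.

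Rel, the NF-kB subunit c-Rel that germinal centre B cells need, was at 322, 327 and 310.5 CPM in KO cohort WT and at 285, 260.4 and 279 CPM in KO, and Rel was at 174, 196 and 252 CPM in RH cohort WT. The log2 difference was -0.63 ± 0.17 (SE, adjusted p = 0.0401). Junb, a subunit of the AP-1 factor, was at 45.03, 48.9 and 50.9 CPM in KO cohort WT and at 88.9, 72.0 and 77.9 CPM in RH cohort WT, a difference of 0.72 ± 0.13 (SE, adjusted p = 0.0129). Every RH cohort WT library was below every KO cohort WT library for Rel and above for Junb. Nfkbib, which encodes the inhibitor IkB-beta, was at 32.5, 31.5 and 32.4 CPM in KO cohort WT and at 48.7, 44.9 and 41.01 CPM in RH cohort WT (0.48 ± 0.12 (SE, adjusted p = 0.0318)). Of the exon bases of Nfkbib, 16.4% are shared with Sirt2 and Ccer2 on the other strand, and of those of Junb 7.52% with Prdx2. No source used here gives the strand setting of the counting. Fos was at 1.32, 1.07 and 1.49 CPM in KO cohort WT and at 4.30, 10.7 and 3.47 CPM in RH cohort WT (2.26 ± 0.63 (SE, adjusted p = 0.0468)). RH cohort WT 2 had the highest Fos level of all 16 libraries, and without it the Fos difference was 1.59 (adjusted p = 0.210). All 5 calls were lost when RH cohort WT 1 was grouped with the cohort its batch tag names, and all 5 with the mitochondrial share as a covariate. Nearly all calls over all genes were lost too, with 1 and 0 left against 840 in the main fit. Leaving out each library in turn left 0 to 4 higher and 0 to 1 lower, and only without RH cohort WT 3 were as many as 4 higher and 1 lower. Without RH cohort WT 3, 1868 of all genes were called, and 3 to 260 without any other library of these groups.

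**Figure D2:**
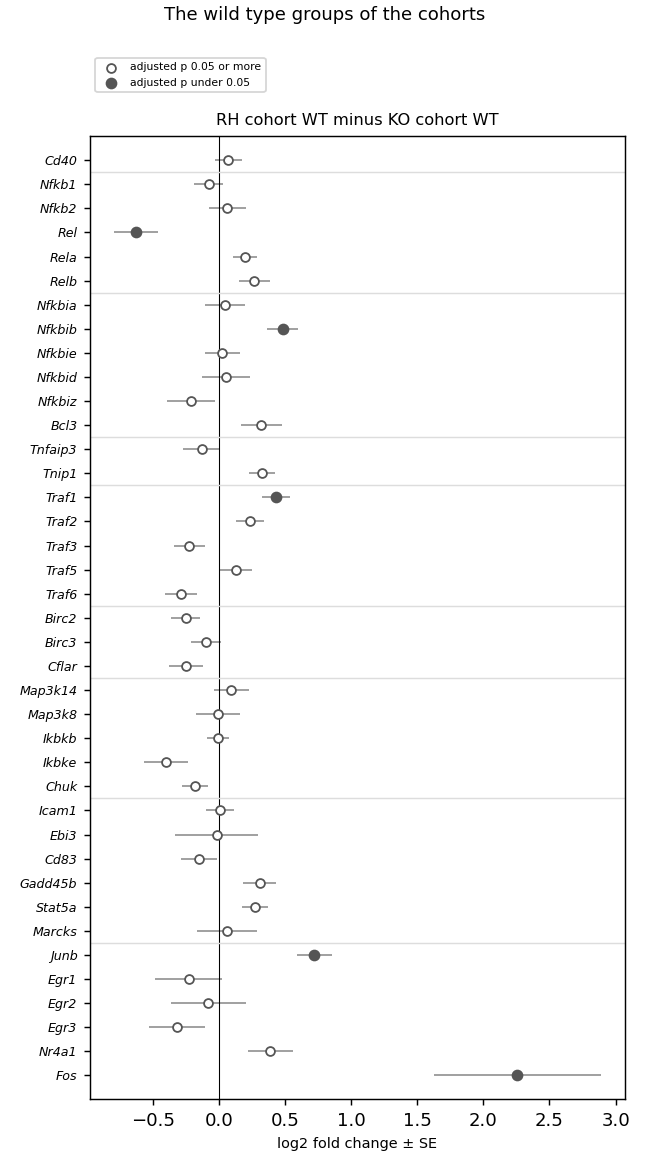
Log2 difference of each of the 39 genes between the wild type groups, RH cohort WT minus KO cohort WT, with its SE, grouped by role; filled points have an adjusted p under 0.05. Junb (0.72), Nfkbib (0.48), Traf1 (0.43) and Fos (2.26) are filled to the right of 0 and Rel (-0.63) to the left.

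The knockout was then set against its own wild type group. No member passed the test, so 0 of 39 were called by edgeR, where 1.30% of all tested genes were, and 2 had an unadjusted p under 0.05 (12.1% of all genes). DESeq2 and limma-voom each called 1 member, Nr4a1, which was lower. Over all genes these tools called 557 and 944 in either direction, against 216 by edgeR. The library values of 1 member, Stat5a, lay above those of the wild type without overlap and those of 6 members lay below, namely Rel, Traf1, Traf3, Ebi3, Egr3 and Nr4a1, where 12.7% of all genes lay above and 12.7% below. Differences were positive for 14 members and negative for 25, with a median of -0.09 against -0.002 over all genes. Leaving out each library moved the set's median between -0.13 and -0.03.

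In the heterozygous knock-in, again 0 of 39 members were called by edgeR, against 0.0181% of all genes, and 5 had an unadjusted p under 0.05 (7.18% of all genes). DESeq2 called 0 and limma-voom called 1 higher and 2 lower, where over all genes they called 51 and 244 in either direction, against 3 by edgeR. Nfkbia was the 1 member with every library above the wild type libraries and Tnip1 the 1 with every library below, where 2.97% and 3.52% of all genes were. Differences were positive for 30 of 39 members, with a median of 0.14 against -0.007 over all genes. With the mitochondrial share as a covariate 21 of 39 were positive and the median was 0.02, and without RH cohort WT 2 25 were positive and the median was 0.05.

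The homozygous knock-in had the same 3 control libraries as the heterozygous one. Gadd45b and Traf1 fell, which made 2 of 39 members lower (0.994% of all genes) and 0 higher (0.578% of all genes) by edgeR. An unadjusted p under 0.05 was found for 10 members, against 12.9% of all genes, 6 of them with positive differences. DESeq2 called 1 member higher, Ikbke, and the same 2 lower, Gadd45b and Traf1. Limma-voom called 6 higher and 5 lower. Both tools also called more of all genes, 666 and 1120 in either direction against 261 by edgeR. The libraries of 6 members lay wholly above the wild type, namely Nfkbia, Nfkbie, Birc2, Birc3, Ikbke and Cd83, and those of 4 wholly below, namely Tnip1, Traf1, Ebi3 and Gadd45b, where 7.39% and 8.03% of all genes did. Differences were positive for 24 members, and the set's median of 0.02 was close to the 0.016 of all genes. With the mitochondrial share as a covariate, or without RH cohort WT 2, the number positive was 16, and the medians were -0.04 and -0.03.

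**Figure D3:**
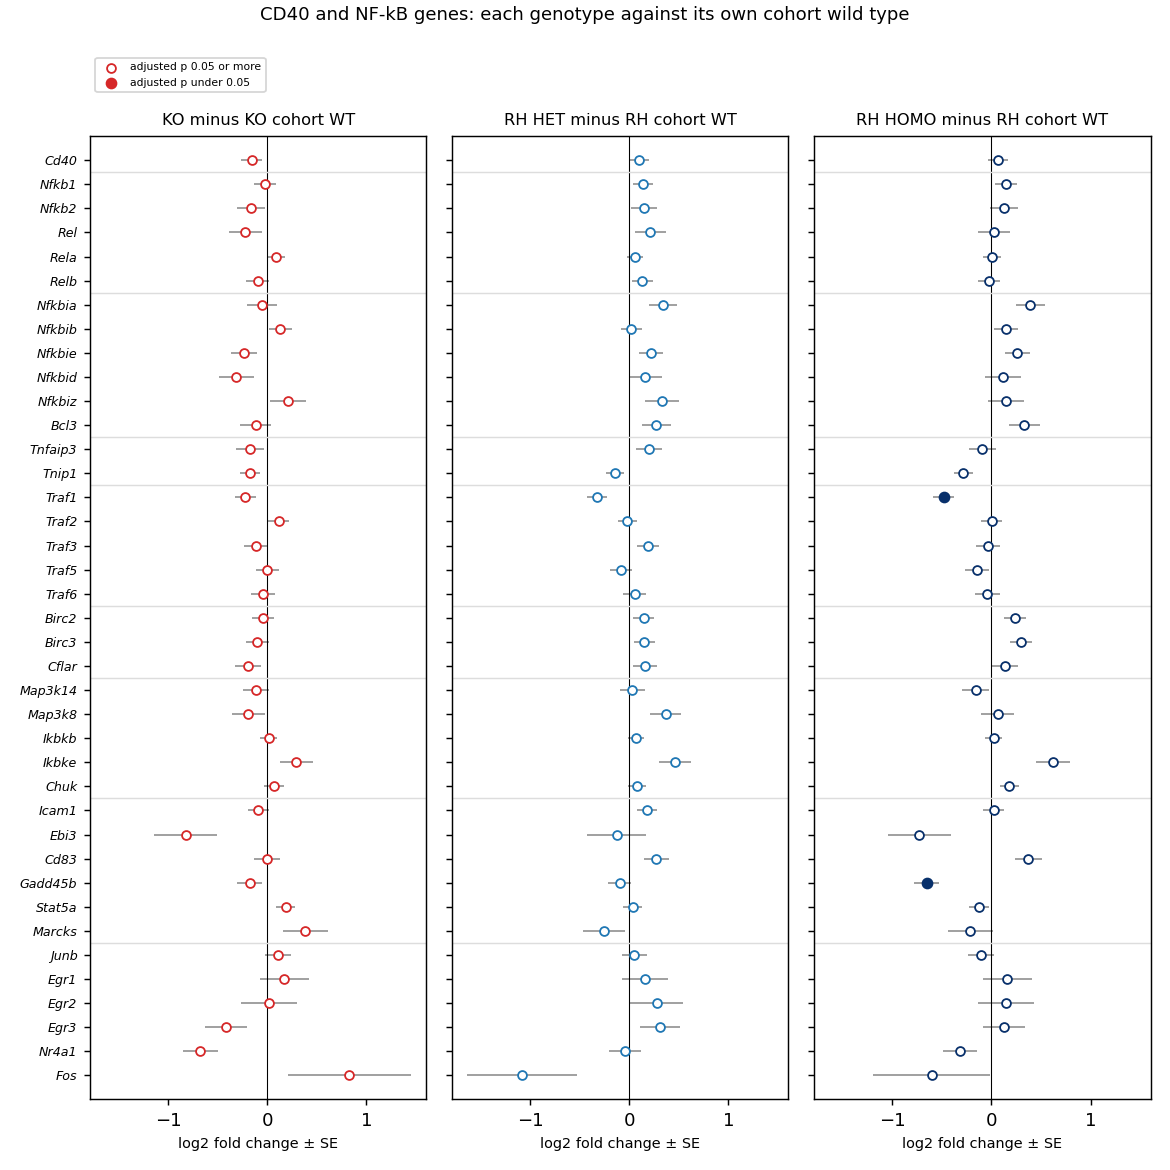
Log2 difference from the wild type of the same cohort, with its SE, for each of the 39 genes in KO, RH HET and RH HOMO, grouped by role and on 1 scale; filled points have an adjusted p under 0.05. Only Gadd45b (-0.65) and Traf1 (-0.48) in RH HOMO are filled.

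The receptor and its adaptors came first in the pathway. Cd40 was at 42.4, 48.4 and 44.4 CPM in KO cohort WT and at 42.5, 42.4 and 36.5 CPM in KO, with a difference of -0.16 ± 0.10 (SE, adjusted p = 0.617). Cd40 was at 50.9, 41.2 and 49.95 CPM in RH cohort WT, 49.8, 50.7, 51.9 and 50.1 CPM in RH HET and 47.4, 54.8 and 46.4 CPM in RH HOMO, with differences of 0.10 ± 0.10 (SE, adjusted p = 0.835) for RH HET and 0.07 ± 0.10 (SE, adjusted p = 0.857) for RH HOMO. Values of the genotypes overlapped their wild type, and the 95% intervals of the log2 difference ran from -0.37 to 0.06 in KO, -0.11 to 0.30 in RH HET and -0.15 to 0.28 in RH HOMO.

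Traf1, an adaptor that NF-kB induces and that binds TRAF2 and the cIAPs, lies at chr2:34941750-34961772 on the minus strand. Traf1 was at 90.0, 95.2 and 92.5 CPM in KO cohort WT and at 81.0, 77.8 and 79.3 CPM in KO and differed by -0.22 ± 0.11 (SE, adjusted p = 0.417). In the knock-in cohort Traf1 was at 136, 127 and 111 CPM in RH cohort WT, 97.4, 117, 88.3 and 95.7 CPM in RH HET and 92.4, 96.2 and 79.2 CPM in RH HOMO. All 3 RH HOMO libraries and 3 of 4 RH HET libraries were below the lowest wild type library, while RH HET 2 lay inside the wild type range. The log2 change was -0.48 ± 0.11 (SE, adjusted p = 0.0281) in RH HOMO and -0.32 ± 0.10 (SE, adjusted p = 0.441) in RH HET, and the RH HET difference did not pass. RH HOMO minus RH HET was -0.16 ± 0.10 (SE, adjusted p = 0.532). RH cohort WT was itself higher than KO cohort WT in Traf1, and against all 6 wild type libraries the RH HOMO difference was -0.28 (adjusted p = 0.226). The call was also lost with the mitochondrial share as a covariate (Traf1 at -0.27, adjusted p = 0.151), with RH cohort WT 1 in the cohort of its batch tag (adjusted p = 0.339), on only the libraries compared (adjusted p = 0.241), and without RH cohort WT 1 (0.107), RH cohort WT 2 (0.0975), RH HOMO 1 (0.0598) or RH HOMO 3 (0.077). On only the libraries compared, 0 of all genes were called, against 261 in the main fit. The part of the mitochondrial share in the result was not tested.

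No other adaptor passed the test. Traf2 and Traf3, which together with the cIAPs hold NIK at a low level, were at 0.12 ± 0.11 (SE, adjusted p = 0.746) and -0.11 ± 0.12 (SE, adjusted p = 0.787) in KO, and at 0.00 ± 0.11 (SE, adjusted p = 0.996) and -0.04 ± 0.12 (SE, adjusted p = 0.938) in RH HOMO. Every KO library was below every wild type library for Traf3, at 92.1 to 101 CPM against 103 to 104 CPM. Traf5 was at -0.15 ± 0.12 (SE, adjusted p = 0.663) in RH HOMO. Traf6, which links CD40 to the TAK1 kinase, was at -0.04 ± 0.12 (SE, adjusted p = 0.938) in KO and 0.05 ± 0.12 (SE, adjusted p = 0.926) in RH HET.

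Birc2 and Birc3 encode the cIAP ubiquitin ligases and Cflar an inhibitor of caspase-8. All 3 had negative differences in KO and positive ones in both knock-in groups, and none passed. Some alternative turned the sign of Birc2 in KO and of Cflar in both knock-in groups. Birc3 was at 0.30 ± 0.11 (SE, adjusted p = 0.245) in RH HOMO, where it ranged from 106.5 to 125 CPM against 106.5, 75.0 and 99.1 CPM in the wild type libraries. RH HOMO 2 and RH cohort WT 1 thus met at 106.5 CPM, and RH cohort WT 2 was the lowest library. Birc2 was at 0.24 ± 0.11 (SE, adjusted p = 0.373) and Cflar at 0.13 ± 0.13 (SE, adjusted p = 0.737) in RH HOMO.

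**Figure D4:**
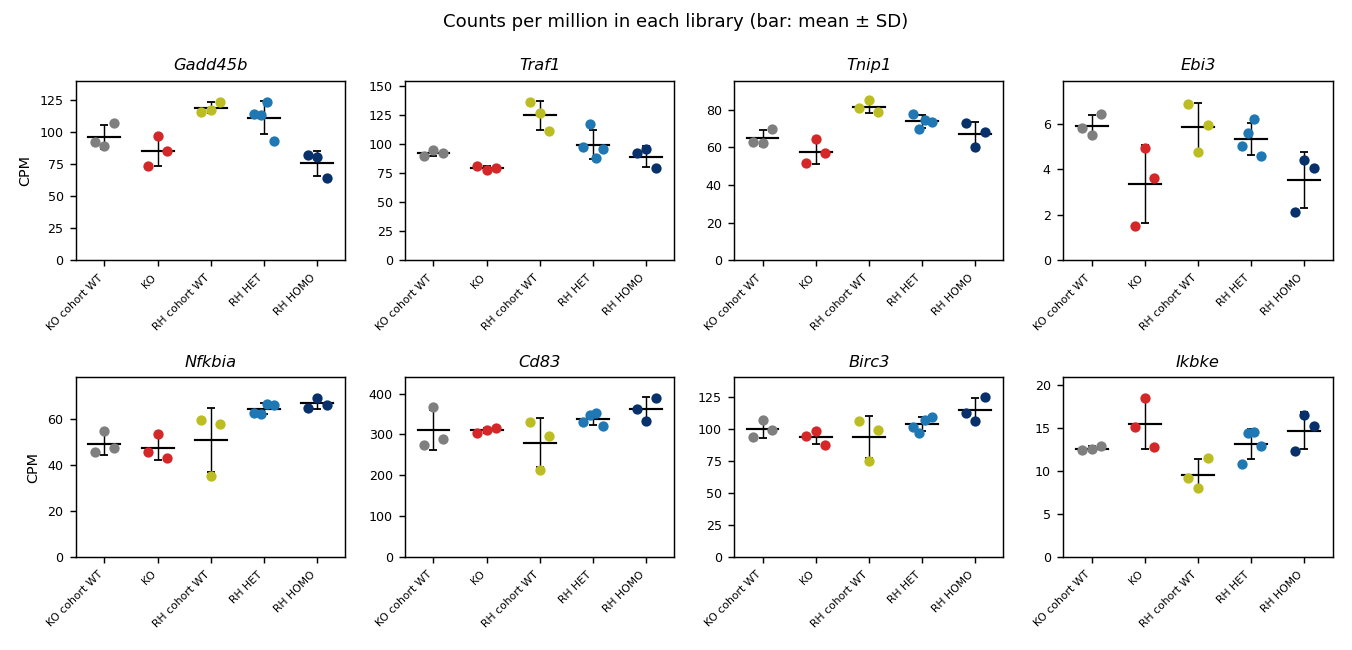
CPM of Gadd45b, Traf1, Tnip1, Ebi3, Nfkbia, Cd83, Birc3 and Ikbke in each of the 16 libraries by group; points are libraries, bars the mean and SD, and axes start at 0. The 3 RH HOMO libraries of Gadd45b sit between 64.5 and 82.1 CPM, below the 116 to 124 CPM of RH cohort WT.

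The NF-kB subunits did not pass the test in any genotype. In KO 1 of 5 differences was positive, in RH HET 5 of 5 and in RH HOMO 4 of 5, but at least 1 alternative turned the sign of 3, 4 and 5 of the 5. Rel was at 285, 260.4 and 279 CPM in KO against 310.5 to 327 CPM in its wild type, so the groups did not overlap, and the difference was -0.22 ± 0.16 (SE, adjusted p = 0.680). In the knock-in cohort Rel was at 174, 196 and 252 CPM in RH cohort WT, 266, 206, 249 and 240.0 CPM in RH HET and 215, 148 and 269 CPM in RH HOMO, and the groups overlapped. RH HOMO 2 and RH cohort WT 1, which stood apart on the first principal component, were the lowest in Rel.

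Rela, the main transactivating subunit, was at 84.6, 89.3 and 101 CPM in KO cohort WT and at 89.5, 109.8 and 92.5 CPM in KO and at 102, 107 and 105 CPM in RH cohort WT, 111, 106, 113 and 107 CPM in RH HET and 107, 99.1 and 109 CPM in RH HOMO. Its differences were 0.09 ± 0.09, 0.06 ± 0.09 and 0.00 ± 0.09 (SE) in KO, RH HET and RH HOMO, and each genotype overlapped the wild type of its own cohort. Nfkb1, the precursor of p50, was at 202, 226 and 224 CPM in KO cohort WT and at 211, 212 and 220.3 CPM in KO and at 200.5, 193 and 224 CPM in RH cohort WT, 249, 193, 246 and 219 CPM in RH HET and 237, 194 and 255 CPM in RH HOMO. It differed by -0.02 ± 0.11 (SE, adjusted p = 0.968) in KO and 0.15 ± 0.11 (SE, adjusted p = 0.625) in RH HOMO, and RH HET 2 and RH HOMO 2 were the lowest of their groups.

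Nfkb2 and Relb form the dimer of the NIK branch. Nfkb2 was at 81.0, 92.8 and 89.6 CPM in KO cohort WT and at 70.0, 91.1 and 74.0 CPM in KO and at 104, 68.4 and 102 CPM in RH cohort WT, 102, 89.8, 109 and 106 CPM in RH HET and 102, 91.5 and 106 CPM in RH HOMO. RH cohort WT 2, at 68.4 CPM, was the lowest library, and no genotype lay outside the wild type range without overlap. Relb was at 25.7, 29.5 and 27.7 CPM in KO cohort WT and at 24.2, 30.2 and 23.2 CPM in KO and at 35.2, 30.9 and 33.7 CPM in RH cohort WT, 36.8, 34.3, 40.9 and 33.9 CPM in RH HET and 32.9, 35.2 and 30 CPM in RH HOMO, with differences from -0.09 ± 0.11 (SE, adjusted p = 0.837) in KO to 0.13 ± 0.11 (SE, adjusted p = 0.801) in RH HET. Nfkb2 shares 18.1% of its exon bases with Psd and another gene on the other strand.

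The IkB proteins, inhibitors and atypical members together, had positive differences in 6 of 6 members in each knock-in group and in 2 of 6 in KO. Some alternative turned the sign of Nfkbib in RH HET, Nfkbid in RH HOMO and Nfkbia and Nfkbib in KO. None of the 6 passed the test. Nfkbia, which encodes IkB-alpha and is among the most rapidly induced NF-kB targets, was at 45.5, 54.8 and 47.4 CPM in KO cohort WT and at 45.8, 53.5 and 43.2 CPM in KO and at 59.6, 35.0 and 58.0 CPM in RH cohort WT, 62.8, 62.3, 66.8 and 66.2 CPM in RH HET and 64.9, 69.3 and 66.2 CPM in RH HOMO. All 7 knock-in libraries lay above all 3 wild type libraries, and RH cohort WT 2, at 35.0 CPM, was far below the others. The log2 difference was 0.34 ± 0.14 (SE, adjusted p = 0.662) in RH HET and 0.39 ± 0.15 (SE, adjusted p = 0.245) in RH HOMO. Nfkbib was at 31.4, 37.4 and 37.0 CPM in KO, with 49.2, 46.0, 45.7 and 41.1 CPM in RH HET and 47.4, 58.7 and 42.8 CPM in RH HOMO, with differences of 0.13 ± 0.12 (SE, adjusted p = 0.740) in KO and 0.15 ± 0.12 (SE, adjusted p = 0.661) in RH HOMO, and groups of 1 cohort overlapped.

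The other IkB proteins were IkB-epsilon (Nfkbie), the nuclear or atypical members Nfkbid and Nfkbiz, and Bcl3, a coactivator of p50 and p52 dimers. Nfkbie was at 0.26 ± 0.13 (SE, adjusted p = 0.414) in RH HOMO and -0.23 ± 0.13 (SE, adjusted p = 0.511) in KO. The test of the difference between these effects gave 0.50 ± 0.18 (SE, adjusted p = 0.347). Bcl3 was at 0.33 ± 0.16 (SE, adjusted p = 0.385) in RH HOMO, with 47.1, 28.6 and 32.2 CPM in RH cohort WT and 41.03 to 52.9 CPM in RH HOMO, which overlapped. Nfkbid ranged from -0.31 ± 0.18 (SE, adjusted p = 0.537) in KO to 0.16 ± 0.17 (SE, adjusted p = 0.843) in RH HET, and Nfkbiz was at 0.33 ± 0.17 (SE, adjusted p = 0.740) in RH HET.

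A20 (Tnfaip3) and its partner ABIN1 (Tnip1) end NF-kB signalling by acting on ubiquitin chains. Tnfaip3 was at 47.4, 42.1 and 44.1 CPM in KO cohort WT and at 42.1, 42.0 and 34.4 CPM in KO and at 46.3, 32.8 and 43.0 CPM in RH cohort WT, 48.2, 45.7, 46.6 and 46.3 CPM in RH HET and 38.9, 30.8 and 45.01 CPM in RH HOMO. RH HET libraries, at 45.7 to 48.2 CPM, were all above the RH HOMO libraries, and RH HOMO minus RH HET was -0.29 ± 0.13 (SE, adjusted p = 0.427). Tnip1 was at 80.9, 84.8 and 78.8 CPM in RH cohort WT, 77.9, 69.8, 74.5 and 73.2 CPM in RH HET and 73.0, 59.95 and 68.1 CPM in RH HOMO. Every knock-in library was below every wild type library, and the differences were -0.14 ± 0.09 (SE, adjusted p = 0.764) in RH HET and -0.28 ± 0.10 (SE, adjusted p = 0.186) in RH HOMO. In KO, Tnip1 overlapped its wild type at -0.17 ± 0.10 (SE, adjusted p = 0.530).

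The kinases were NIK (Map3k14), Tpl2 (Map3k8), and the IkB kinases Chuk, Ikbkb and Ikbke. Map3k14 was at 49.2, 53.7 and 62.0 CPM in KO cohort WT and at 48.3, 56.7 and 47.2 CPM in KO and at 56.8, 53.1 and 65.9 CPM in RH cohort WT, 66.5, 53.4, 64.8 and 54.7 CPM in RH HET and 54.0, 44.0 and 59.3 CPM in RH HOMO. Its groups overlapped, with differences of -0.12 ± 0.13 (SE, adjusted p = 0.818) in KO and -0.16 ± 0.13 (SE, adjusted p = 0.677) in RH HOMO. Ikbke, the inducible IKK-epsilon kinase at chr1:131254343-131279606, was at 12.4, 12.5 and 12.9 CPM in KO cohort WT and at 15.1, 18.5 and 12.8 CPM in KO and at 9.14, 7.99 and 11.5 CPM in RH cohort WT, 10.8, 14.4, 14.6 and 12.9 CPM in RH HET and 12.3, 16.6 and 15.2 CPM in RH HOMO. All 3 RH HOMO libraries were above the highest wild type library, and RH HET 1 lay within the wild type range. The difference was 0.62 ± 0.17 (SE, adjusted p = 0.0768) in RH HOMO and 0.46 ± 0.16 (SE, adjusted p = 0.553) in RH HET. Ikbke was called in RH HOMO by DESeq2 (adjusted p = 0.0188), by limma-voom (0.0433), with no count filter (0.0401) and without RH cohort WT 3 (0.0437). Chuk and Ikbkb, the catalytic IKK subunits, were at 0.18 ± 0.10 (SE, adjusted p = 0.473) and 0.02 ± 0.08 (SE, adjusted p = 0.945) in RH HOMO. Ikbkb had the narrowest interval of all members in RH HOMO, from -0.15 to 0.20. Map3k8 was at 0.37 ± 0.16 (SE, adjusted p = 0.662) in RH HET and did not pass.

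Gadd45b was the member with the smallest p in RH HOMO. It lies at chr10:80930073-80932204 on the plus strand. Gadd45b was at 92.3, 89.4 and 107 CPM in KO cohort WT and at 73.4, 97.0 and 85.0 CPM in KO and at 116, 118 and 124 CPM in RH cohort WT, 114, 114, 124 and 93.1 CPM in RH HET and 82.1, 80.3 and 64.5 CPM in RH HOMO. RH HOMO libraries lay below all libraries of the other groups except KO 1, at 73.4 CPM. Gadd45b fell in RH HOMO by 0.65 ± 0.12 on the log2 scale (SE, adjusted p = 0.0115), from 119 ± 4.23 to 75.6 ± 9.69 CPM (SD, n = 3 each). RH HET differed from the wild type by -0.10 ± 0.12 (SE, adjusted p = 0.859) and RH HOMO differed from RH HET by -0.56 ± 0.12 (SE, adjusted p = 0.118). Leaving out each library kept the Gadd45b call in 6 of 6 fits, between -0.73 and -0.56, and the fit on only the libraries compared did not call it (adjusted p = 0.11). That last fit called 0 of all genes, against 261 in the main fit. With the mitochondrial share as a covariate Gadd45b was at -0.71 (adjusted p = 0.0270).

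Cd83, the marker of light zone and activated B cells, was at 275, 367 and 289.5 CPM in KO cohort WT and at 303, 311 and 316 CPM in KO and at 331, 213 and 296 CPM in RH cohort WT, 331, 347, 352 and 322 CPM in RH HET and 363, 333 and 390.4 CPM in RH HOMO. The 3 RH HOMO libraries were above the 3 wild type libraries, with the lowest of the former at 333 and the highest of the latter at 331 CPM, and the difference was 0.37 ± 0.13 (SE, adjusted p = 0.210). RH cohort WT 2 was the lowest library in Cd83. Ebi3, a subunit of the cytokines IL-27 and IL-35, was at 5.80, 5.52 and 6.41 CPM in KO cohort WT and at 1.52, 4.92 and 3.61 CPM in KO and at 6.84, 4.77 and 5.93 CPM in RH cohort WT, 4.996, 5.57, 6.20 and 4.59 CPM in RH HET and 2.12, 4.38 and 4.06 CPM in RH HOMO. Ebi3 was lower without overlap in KO (-0.82 ± 0.32 (SE, adjusted p = 0.272)) and in RH HOMO (-0.73 ± 0.32 (SE, adjusted p = 0.330)), and neither passed. Its exons share 23.4% of their bases with Gm16712 on the other strand. The adhesion molecule gene Icam1 was at -0.09 ± 0.11 (SE, adjusted p = 0.827) in KO and 0.02 ± 0.11 (SE, adjusted p = 0.961) in RH HOMO. Stat5a, a transducer of cytokine signals, was at 0.19 ± 0.10 (SE, adjusted p = 0.484) in KO, and Marcks, a substrate of protein kinase C, at 0.38 ± 0.23 (SE, adjusted p = 0.550).

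Among the immediate early factors, Fos was the most variable member in every group other than KO cohort WT, where Marcks was. Fos was at 1.32, 1.07 and 1.49 CPM in KO cohort WT and at 1.16, 4.21 and 1.55 CPM in KO and at 4.30, 10.7 and 3.47 CPM in RH cohort WT, 1.15, 5.82, 2.91 and 1.69 CPM in RH HET and 2.65, 7.38 and 2.10 CPM in RH HOMO. The libraries KO 2, RH cohort WT 2, RH HET 2 and RH HOMO 2 had the highest Fos level of their groups, its coefficient of variation reached 72.2% in RH HET, and its differences were 0.83 ± 0.62 (SE, adjusted p = 0.682) in KO, -1.08 ± 0.55 (SE, adjusted p = 0.733) in RH HET and -0.60 ± 0.59 (SE, adjusted p = 0.740) in RH HOMO. The sign in RH HOMO turned to 0.06 without RH cohort WT 2. Egr1, induced by antigen receptor signals, was at 53.8, 73.9 and 68.2 CPM in KO cohort WT and at 62.2, 93.2 and 65.7 CPM in KO and at 69.9, 36.7 and 60.7 CPM in RH cohort WT, 72.3, 55.6, 65.8 and 55.3 CPM in RH HET and 65.3, 38.4 and 83.3 CPM in RH HOMO. No genotype differed beyond this spread, with differences of 0.17 ± 0.25, 0.16 ± 0.23 and 0.16 ± 0.25 (SE).

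Nr4a1 encodes the nuclear receptor Nur77, which reports antigen receptor signalling. It was at 11.1, 12.4 and 10.4 CPM in KO cohort WT and at 6.21, 7.49 and 7.53 CPM in KO. All 3 KO libraries were below all 13 other libraries, and the difference of -0.68 ± 0.17 (SE, adjusted p = 0.0716) did not pass. Nr4a1 was called in KO in 8 of 18 alternatives, with adjusted p = 0.00811 by DESeq2, 0.0074 by limma-voom and 0.0221 on only the libraries compared. Among the 8 was the main fit itself, read at the looser threshold of 0.1. No fit that left out 1 library called Nr4a1 (adjusted p = 0.124 to 0.276). In the knock-in cohort Nr4a1 was at 16.2, 14.4 and 13.9 CPM in RH cohort WT, 14.5, 16.1, 15.4 and 11.4 CPM in RH HET and 10.0, 15.6 and 10.0 CPM in RH HOMO, which overlapped, with -0.32 ± 0.17 (SE, adjusted p = 0.477) in RH HOMO. The effect of RH HET minus that of KO was 0.63 ± 0.24 (SE, adjusted p = 0.448).

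Junb was at 43.5, 62.4 and 50.5 CPM in KO, with 94.2, 81.4, 85.7 and 68.6 CPM in RH HET and 68.6, 80.1 and 73.5 CPM in RH HOMO, and the groups of each cohort overlapped. Egr2 was at 0.02 ± 0.28 (SE, adjusted p = 0.988) in KO and 0.14 ± 0.28 (SE, adjusted p = 0.889) in RH HOMO, with RH cohort WT 2 lowest at 5.24 CPM. Egr3 was lower without overlap in KO, at 18.8, 21.1 and 21.4 CPM against 27.4, 29.9 and 24.4 CPM, with -0.42 ± 0.21 (SE, adjusted p = 0.458). In RH HET Egr3 was at 0.31 ± 0.20 (SE, adjusted p = 0.766).

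**Figure D5:**
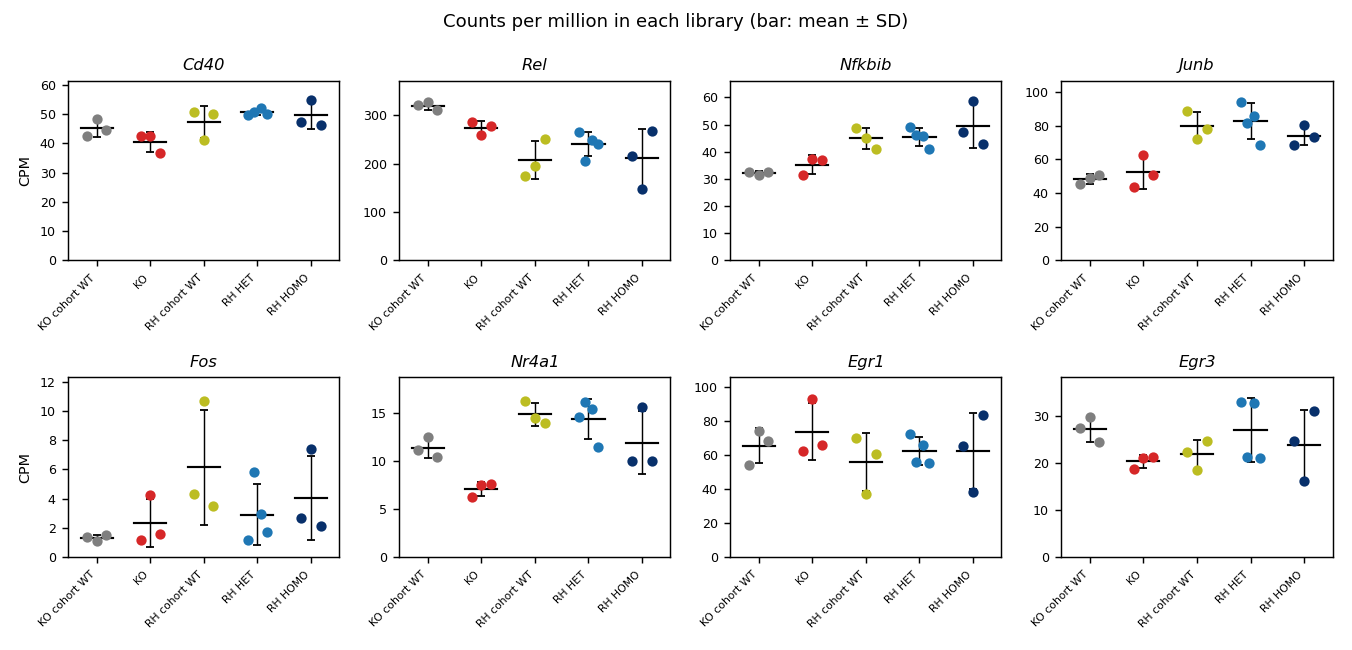
CPM of Cd40, Rel, Nfkbib, Junb, Fos, Nr4a1, Egr1 and Egr3 in each of the 16 libraries by group; points are libraries, bars the mean and SD, and axes start at 0. The 3 KO libraries of Nr4a1, at 6.21 to 7.53 CPM, are the lowest of the 16.

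The homozygous and heterozygous libraries were compared directly, with no shared control. None of the 39 members was called by edgeR (0% of all genes), and 2 had an unadjusted p under 0.05, Gadd45b and Tnfaip3, where 11.4% of all genes did. DESeq2 and limma-voom each called 1 member, Gadd45b, with adjusted p = 0.00214 and 0.0354. Over all genes these tools called 132 and 89 in either direction. Tnfaip3, Ebi3 and Gadd45b were lower in every RH HOMO library than in every RH HET library (4.28% of all genes), and 0 members were higher in every library (3.78% of all genes). The median over the set was -0.06, with 14 of 39 positive.

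Differences between effects were tested in the same model. For RH HOMO minus KO, 0 of 39 members were called by edgeR (0.241% of all genes), and 4 had an unadjusted p under 0.05 (9.53% of all genes), with Nfkbie at 0.50, Birc3 at 0.39, Gadd45b at -0.48 and Stat5a at -0.31. DESeq2 called 0 and limma-voom 3 higher, where over all genes they called 243 and 645 in either direction, against 40 by edgeR. For RH HET minus KO, 0 were called by edgeR (0.120% of all genes) and 5 had an unadjusted p under 0.05 (8.60% of all genes), with Nfkbie at 0.46, Map3k8 at 0.56, Egr3 at 0.73, Nr4a1 at 0.63 and Fos at -1.91. DESeq2 called 0 and limma-voom 5 higher, where over all genes they called 138 and 600 in either direction, against 20 by edgeR. Medians were 0.09 and 0.18. Side by side, 5 members had negative differences in all 3 genotypes (Ebi3, Gadd45b, Nr4a1, Tnip1 and Traf1) and 8 had positive ones (Chuk, Egr1, Egr2, Ikbkb, Ikbke, Nfkbib, Nfkbiz and Rela), and RH HET and RH HOMO share their controls. The share of all genes with 1 sign in all 3 genotypes was not counted, so these numbers do not set the members apart. Of these 13 members, Traf1, Ikbke and Nfkbiz kept their sign in all 3 genotypes under every alternative run.

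Some libraries were low or high in many members at once. RH cohort WT 2 was above its group's mean in 6 of 39 members and RH cohort WT 3 in 30. RH HET 3 was above in 35 and RH HET 4 in 11, and KO 2 was above in 29. The median coefficient of variation over the set ran from 6.93% in KO cohort WT to 13.2% in RH HOMO. The 95% interval of a log2 difference from wild type had a median half-width of 0.275 in KO, 0.258 in RH HET and 0.275 in RH HOMO, and it was widest for Fos.

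Members with an NF-kB match in the promoter window were set beside those without one. Of the 13 with a match, 2 were positive in KO, with a median of -0.17, and of the 16 without, 8 were, with a median of -0.02. In RH HET the medians were 0.16 and 0.06, and in RH HOMO -0.04 and 0.01. The 10 members with no promoter entry, whose match is unknown, had medians of -0.01 in KO, 0.15 in RH HET and 0.10 in RH HOMO. Both calls in RH HOMO, Traf1 and Gadd45b, were among the 16 without a match.

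Calls on lists of other genes of the pathway stand beside the 1.30% of all genes called in KO, the 0.0181% in RH HET, and the 0.578% higher and 0.994% lower in RH HOMO. Among receptors of the TNF family and Toll-like receptors, 11 of 16 listed genes were tested. In KO 1 was lower and 2 were positive: Tnfrsf13c, the receptor for the survival factor BAFF, fell from 489, 518 and 523 CPM to 300, 433 and 388 CPM (-0.45 ± 0.10 SE, adjusted p = 0.042). RH HET had 0 calls, with Tnfrsf13b at -0.34 (adjusted p = 0.338). In RH HOMO 1 was lower, Tnfrsf13b, which encodes the BAFF and APRIL receptor TACI and fell from 148, 161 and 145 CPM to 114, 112 and 116 CPM (-0.41 ± 0.10, adjusted p = 0.039). Values of the 2 groups did not overlap for either gene.

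Other NF-kB and CD40 response targets had 0 of 35 calls in KO and RH HET, and 2 of 35 in RH HOMO. The interferon-responsive factor gene Irf1 rose in RH HOMO from 38.0, 42.6 and 45.7 CPM to 76.0, 109.5 and 84.6 CPM (1.10 ± 0.21 SE, adjusted p = 0.0125). Cd86, the costimulatory ligand of CD28, rose from 126, 121 and 150 CPM to 183, 154 and 183 CPM (0.39 ± 0.09, adjusted p = 0.0496). In KO 9 of 35 were positive with a median of -0.14, and the smallest p was that of the survival gene Bcl2l1 (0.42, adjusted p = 0.0716). In RH HET it was that of Cd86 (0.33, adjusted p = 0.37). The median in RH HOMO was 0.11, with 21 positive.

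Of 29 other immediate early and feedback genes, 1 rose in KO, Spred1, an inhibitor of RAS signalling (0.98 ± 0.18 SE, adjusted p = 0.0135). None was called in the knock-in groups, where Btg2 was at 0.49 in RH HET and Atf3 at -1.43 (adjusted p = 0.086) in RH HOMO. Of 20 light zone genes, Lmo2, a transcriptional cofactor gene, rose in KO (0.45) and in RH HOMO (0.39, adjusted p = 0.0198), where Cd86 and Gpr183, a receptor that guides B cells outward (0.92, adjusted p = 0.0443), rose as well. RH HET had 0 light zone calls. The list's median was -0.17 in KO, with 6 of 20 positive, and 0.12 in RH HOMO, with 11 of 20 positive.

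Of 22 dark zone genes, 1 fell in KO, Rgs13, a regulator of G protein signalling (-1.58, adjusted p = 0.00223). Both knock-in groups had 0 calls, with 18 of 22 negative in RH HET (median -0.07) and 16 of 22 in RH HOMO (median -0.14), where Rgs13 was at -0.77 (adjusted p = 0.105). Heat shock genes, a sign of handling, had 1 of 13 higher in KO, the cochaperone gene Bag3 (0.84, adjusted p = 0.0461), and 0 in the knock-in groups, with Hsp90aa1 at -0.42 in RH HET and Hsph1 at -0.63 in RH HOMO. Markers of other cells were looked at in the same way. The dendritic cell marker Flt3 fell (-0.51) and the erythroid marker Car2 rose (1.0) in KO, and the T cell marker Thy1 rose in RH HOMO (2.16), where Mef2b of the germinal centre list fell (-0.57). Of 5 tested markers each, 1 dendritic cell marker (median -0.58) and 2 erythroid markers (median -0.08) were positive in KO. In RH HOMO 5 of 15 germinal centre markers were positive (median -0.06). Rgs13 is also on the germinal centre list and Gpr183 on that of naive B cells. The T cell list summed to 126 to 139 CPM in KO against 184 to 194 CPM in KO cohort WT, and to 214.5 to 256 CPM in RH HOMO against 208 to 219.6 CPM in RH cohort WT. These sums were mostly Lck, and the single markers did not share 1 direction. Of 7 tested T cell markers, 4 were positive in KO (median 0.53) and 3 in RH HOMO (median -0.21). RH HET had 0 calls on these lists, and macrophage and plasma cell markers had 0 in every genotype. The median over 15 tested macrophage markers was 0.29 in KO, 0.70 in RH HET and 0.71 in RH HOMO. The part of other cells in the members' values was not tested.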

How the data were processed

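RNA of 16 libraries of sorted germinal centre B cells was measured by sequencing. The deposited table holds whole-number read counts per gene symbol, made with CASAVA 1.8, HISAT2 and featureCounts on mm10, per the submitters' processing notes, which give no version of the last 2 tools. The TruSeq RNA v2 kit does not mark strand and the strand setting of the counting is not given in the sources used here, so reads of overlapping genes cannot be told apart. Groups were read from the sample titles, and replicate numbers only name libraries in accession order.

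Counts were analysed with edgeR 4.0.16 in R 4.3.3. The filter filterByExpr left 16606 of 48593 genes, libraries were scaled by TMM, and a model of 5 group means was fitted to all 16 libraries (11 residual degrees of freedom). Unless another tool is named, adjusted p-values come from its quasi-likelihood test with Benjamini-Hochberg adjustment over all tested genes, and a gene was called under 0.05. The SE was taken as the absolute log2 fold change over the root of the F statistic. Replicate pairs differed by more than sampling noise (chi-square 17.7 to 225 per degree of freedom), and each library counted once. Totals of 41362856 to 93040297 counts limit the precision less than the spread between libraries does. The test was also run on simulated counts.

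The members and lists were chosen with earlier results of these data known. Every member is accounted for. Values in every library are given for called members, the NF-kB subunits, Cd40, Nfkbia, Tnfaip3, Traf1, Cd83, Egr1, Nr4a1, Fos and Map3k14, and the 2 members with the smallest p in each genotype. Of each pathway list, at most 3 called genes per direction are named, or the 1 with the smallest p. One of the lists is not reported here. Alternatives were DESeq2 1.42.0 and its size factors, limma 3.58.1 (voom with quality weights), other count filters, no immunoglobulin or T cell receptor genes, an adjusted p of 0.1, only the libraries compared, RH cohort WT 1 in the other cohort, a fit without both RH HOMO 2 and RH cohort WT 1, the mitochondrial share as a covariate, and leaving out each library. All 6 wild type libraries as 1 control group was added after seeing the data. Gene positions come from GENCODE M21 on GRCm38.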

Additional observations from a re-analysis of the deposited data

Results flagged for a closer look

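Traf6, the adaptor that links CD40 to TAK1, was at 54.6 CPM in RH HET 2 and at 65.0 to 66.0 CPM in the other RH HET libraries. The gap to the nearest library was 0.912 of the group's range, above the critical value of Dixon's test for 4 libraries. It was the only such case among 39 members looked at in the RH HET group, where chance gives about 1 in 20.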

How the results depend on the processing

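No paired analysis was possible because the labels give the libraries no replicate numbers that pair them. In KO, 1 member was lower instead of 0 with no count filter, DESeq2, limma-voom, an adjusted p of 0.1, RH cohort WT 1 in the KO cohort, RH cohort WT 1 and RH HOMO 2 left out, and all 6 wild type libraries as controls, and 2 on only the libraries compared. The settings with 1 called 248 to 944 of all genes, and that with 2 called 699, against 216 in the main fit. In RH HET, limma-voom called 1 higher and 2 lower. In RH HOMO, 1 member was higher with no count filter, DESeq2 and an adjusted p of 0.1, and 6 with limma-voom. These settings called 387, 666, 487 and 1120 of all genes, against 261 in the main fit. Leaving out each library gave 0 to 1 higher, with 1 without RH cohort WT 3. In RH HOMO, 5 members were lower with limma-voom, 0 on only the libraries compared, and 1 with RH cohort WT 1 in the KO cohort, RH cohort WT 1 and RH HOMO 2 left out, the mitochondrial covariate, or all 6 wild type libraries. Over all genes 0 were called on only the libraries compared, and 102 to 657 in the 4 fits with 1 member lower. Leaving out each library gave 1 to 2 lower. For RH HOMO minus RH HET, 1 was lower with no count filter, DESeq2 and limma-voom, where they called 63, 132 and 89 of all genes. Limma-voom called 3 higher for RH HOMO minus KO and 5 for RH HET minus KO. Between the wild type groups limma-voom called 9 higher and 7 lower, where it called 4357 of all 16606 tested genes in either direction. RH cohort WT 1 in the KO cohort or the mitochondrial covariate gave 0 and 0, where they called 1 and 0 of all genes. Leaving out each library gave 0 to 4 higher and 0 to 1 lower, where 3 to 1868 of all genes were called. At least 1 alternative turned the sign of 15 of 39 members in KO, 20 in RH HET, 22 in RH HOMO and 19 between the wild type groups, none of them called. Rela in RH HOMO turned in 11 of 18 alternatives, Traf2 in RH HOMO and Traf5 and Cd83 in KO in 9 each. Among the 43 single-gene values that were called in some fit or had the smallest p, signs turned in 5 cases. Fos in RH HOMO was at 0.24 with the mitochondrial covariate, 0.13 against all 6 wild type libraries and 0.0617 without RH cohort WT 2, and leaving out each library put Fos between -1.38 and 0.06. Between the wild type groups Traf3 was at 0.0236 with the covariate, and Cd83 at 0.0132 without RH cohort WT 2 and between -0.28 and 0.01 over all libraries left out. The cause of these changes was not tested. Of the counts of called members, 228 equalled the main count or stayed within 1.5 times of it, and 46 moved further. Most main counts were 0, and 0 against 0 was taken as the same. Of the other alternatives for these single-gene values, 705 kept direction and side of the threshold, 53 newly passed it and 44 no longer did. The lowest level of a member was that of Fos, at 1.07 CPM in KO cohort WT 2, with a count of 101. Its lowest count was 56, in RH HET 1, where counting error weighs most.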
